A study of Danio rerio with 4 samples.

Results

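Heat shock proteins and chaperones were followed in endothelium sorted from the caudal hematopoietic tissue, a blood-forming vascular bed in the tail of zebrafish larvae. The members were every gene whose Ensembl identifier carries a symbol starting with hsp and a digit or the letter a, b, d or e (HSPG2 and hspbap genes left out), with dnaj, or with cct and a digit from 2 to 8, in upper or lower case. This rule uses names alone, and it found 95 of the 28346 genes in the tables. It takes in the HSP70, HSP90, HSP110, HSP60, HSP10 and small heat shock protein families, the J-domain proteins and the CCT subunits except alpha, whose gene is named TCP1. All larvae were labelled wild type and without treatment, were 5 days post fertilisation (dpf) old and carried 2 reporters, Tg(kdrl:GFP;lyve1b:DsRed). The kdrl promoter drives GFP in endothelial cells and the lyve1b promoter drives DsRed in venous and lymphatic endothelium, so the groups are defined by reporter light in a cell sorter. Cells with both colours are called vein here and cells that were only green non-vein, which the titles also call a control, and each group has 2 libraries of bulk mRNA. The labels do not say whether the replicates are separate pools of larvae, so the spread that the p-values measure may be technical.

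Chaperones help proteins fold, keep unfolded chains from clumping and take part in complex assembly and degradation. The cytosol holds constitutive forms that are made at all times (HSPA8, HSP90AB1) and close relatives made on demand under the heat shock factor HSF1 (hsp70l, HSP90AA1), while J-domain proteins such as dnajb1b hand clients to HSP70 and set its ATPase cycle. Separate sets work in mitochondria and in the endoplasmic reticulum, and the ring-shaped CCT chaperonin folds actin, tubulin and other proteins with the help of prefoldin.

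Of the tested chaperone genes 15 differed between the groups, and the calls fell in 5 of the 9 classes of role and compartment. In vein cells 3 heat-inducible members were higher, HSP90AA1, hsp70l and dnajb1b, by 2.85- to 4.17-fold. In the same cells 12 members were lower, namely all 8 identifiers of the CCT chaperonin, the constitutive genes HSP90AB1 and HSPA14, the mitochondrial HSPE1 and the endothelial HSP70 relative HSPA12B. Of the 95 members 80 passed the filter on low counts and were tested with edgeR's quasi-likelihood test, at a Benjamini-Hochberg adjusted p under 0.05 over all 15953 genes tested. The 3 higher members are 3.75% of the members tested, beside 4.11% of all genes tested, and the 12 lower members are 15% beside 7.33%. The share of higher members is close to the background, and 8 of the 12 lower members belong to the CCT chaperonin alone. Without adjustment 12 members (15%) were higher and 20 (25%) lower at p under 0.05, beside 12.3% and 17.7% of all genes tested. Both vein libraries lay above both non-vein libraries in 24 members and below them in 30. These are 30% and 37.5% of the tested members, near the 29.0% and 33.1% of all genes tested, and the groups overlapped in 26 members. The median log2 fold of vein over non-vein was -0.12 over the members and 0.0076 over all genes tested.

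By share of counts the members as a whole took slightly more of the non-vein libraries. They held 1.53% and 1.31% of the estimated counts in non-vein against 1.11% and 1.26% in vein libraries. Their summed FPKM (fragments per length of transcript and depth of library) was 8220 and 7131 in non-vein against 5775 and 6229 in vein libraries. HSPA8 had the highest FPKM of all members in each of the 4 libraries. The next places in the non-vein libraries went to HSPE1, CCT4, HSP90AB1, CCT2 and CCT5, while in the vein libraries CCT2 and CCT5 left the 10 highest and hspb9, hsp70l and dnajb1b entered them. Library totals ran from 15672159 to 18862102 estimated counts, and the limit set by a count of 0, with counting error alone, was 0.159 to 0.191 CPM, that is counts relative to all counts of a library. All other CPM are scaled to totals adjusted by TMM, edgeR's correction for library make-up. On that scale the members summed to 15048.5 and 12513 CPM in non-vein against 11390 and 13225 CPM in vein libraries, and the groups overlapped. In bulk RNA, fewer cells of a type and less RNA per cell cannot be told apart.

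**Figure D1:**
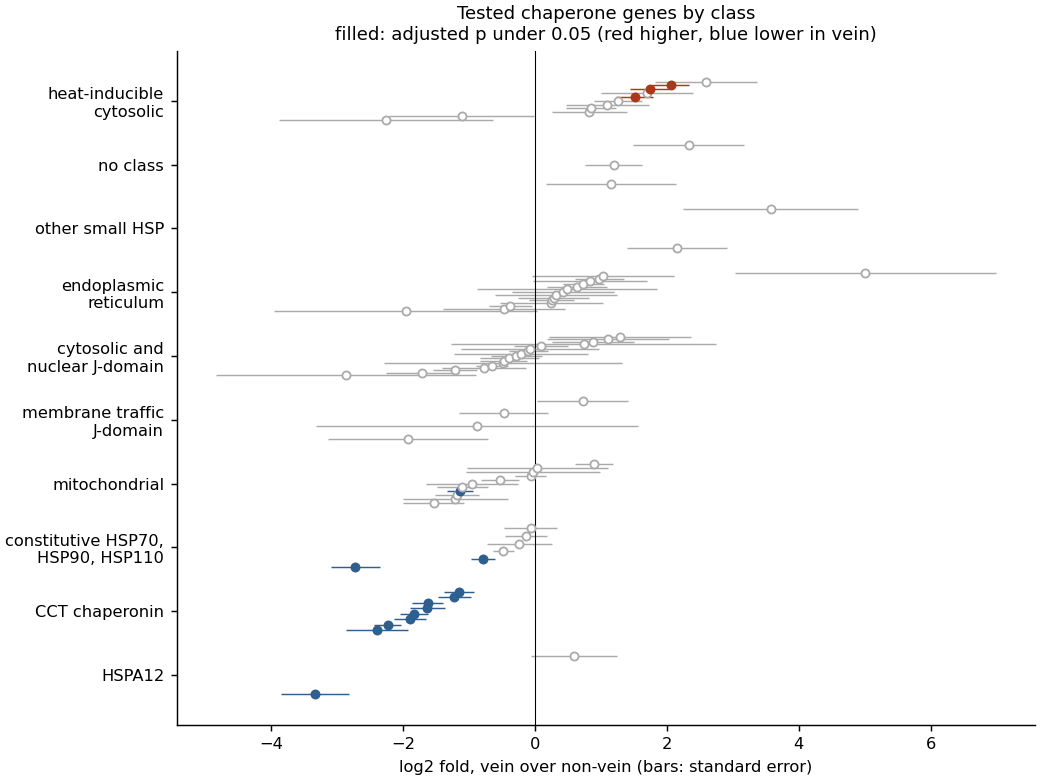
Log2 fold of vein over non-vein for the tested chaperone members, 1 point per gene with its standard error, grouped by class, with filled red (higher) and blue (lower) points for members that passed the test; the second HSPA8 identifier, with no count in vein libraries, is left out. All 8 CCT points lie between -2.39 and -1.15, and 9 of 11 heat-inducible points lie above 0.

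Heat-inducible cytosolic chaperones were higher in vein cells where they differed. Of the 12 genes in this class 11 were tested, 3 passed the test as higher and 0 as lower, and the median log2 fold was 1.26. In 9 of the 11 both vein libraries stood above both non-vein libraries. These shares are 27.3% passing as higher and 81.8% without overlap, beside 4.11% and 29.0% of all genes tested. Summed FPKM of the class was 775 and 664 in non-vein against 1594 and 2151 in vein libraries.

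HSP90AA1 (ENSDARG00000024746), an inducible cytosolic HSP90, stood at 71.9 and 87.5 CPM in non-vein against 272 and 393 CPM in vein libraries. Both vein libraries were high, with no overlap. The fold was 4.17 (log2 2.06, SE 0.28, adjusted p = 0.0167 in edgeR's quasi-likelihood test). hsp70l, the zebrafish HSP70 gene long used as a heat shock reporter, stood at 303 and 236 CPM in non-vein against 689.8 and 1109 CPM in vein libraries. Its lower vein library still exceeded both non-vein libraries by a wide margin, and the fold was 3.34 (log2 1.74, SE 0.30, adjusted p = 0.0253). dnajb1b, an HSP40 that works with HSP70, was measured at 278 and 227 CPM in non-vein against 567 and 872 CPM in vein libraries. Here too the groups did not overlap, and the fold was 2.85 (log2 1.51, SE 0.28, adjusted p = 0.0295). HSP90AA1 passed the test under all 15 alternative settings. hsp70l missed it in 1 (limma on unfiltered log2(FPKM + 1), adjusted p = 0.0524, range over the settings 4.0e-06 to 0.0524). dnajb1b missed it in 3, among them without vein replicate 2 (adjusted p = 0.0637, range 3.5e-05 to 0.0637).

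**Figure D2:**
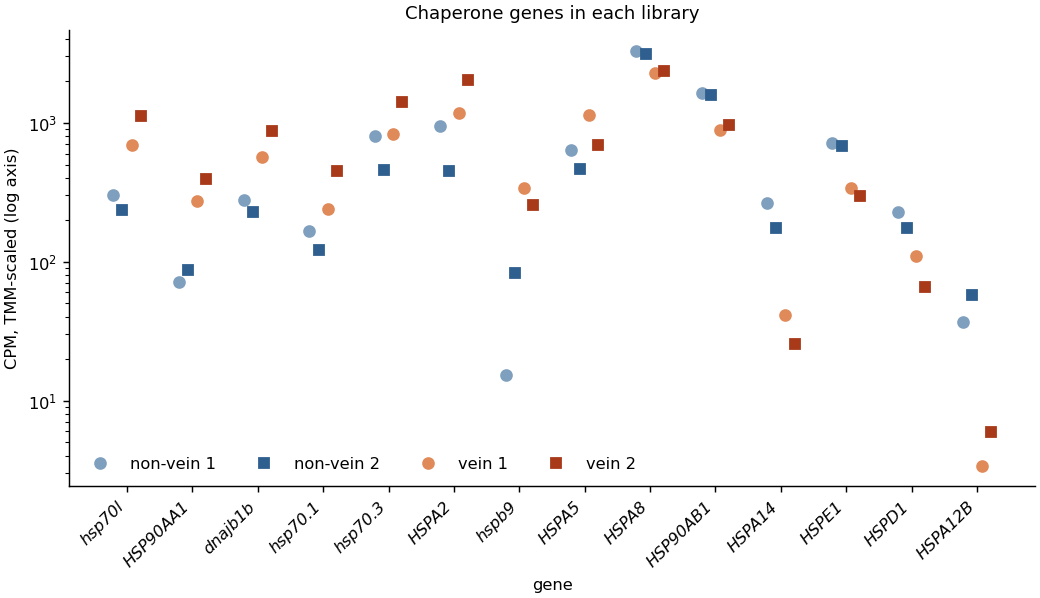
CPM (log axis) of named chaperone members in each library, with blue symbols for non-vein and orange or red symbols for vein libraries. HSP90AA1 rose from 71.9 and 87.5 to 272 and 393 CPM and HSPA14 fell from 266 and 175 to 41.5 and 25.4 CPM, each without overlap of the groups.

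Most other members of the class had higher values in vein libraries but did not pass the test. hsp70.1, a gene of an HSP70 cluster, had 168 and 121 CPM in non-vein against 240.4 and 451 CPM in vein libraries (log2 1.26, SE 0.37, adjusted p = 0.0818). It passed the test with DESeq2, no filter and the edgeR version 4 method, among other settings. hsp70.3 of the same cluster had 797 and 456 CPM against 834 and 1419 CPM (log2 0.85, SE 0.38, adjusted p = 0.203). In both genes the first vein library lay much nearer to the non-vein libraries than the second did. hspb9, a small heat shock protein, had 15.2 and 83 CPM in non-vein against 339 and 255 CPM in vein libraries (log2 2.60, SE 0.77, adjusted p = 0.0861). Its non-vein libraries differed widely from each other, and its log2 fold was 1.84 without non-vein replicate 1 (adjusted p = 0.0178) and 4.28 without non-vein replicate 2 (adjusted p = 0.0020). It passed the test in 7 of the 15 settings, within a range of 4.8e-04 to 0.138. HSPB1, hspb11 and dnajb1a lay between 4.29 and 13.6 CPM in non-vein and between 10.5 and 25.1 CPM in vein libraries, with log2 folds of 0.83, 1.09 and 1.70 and adjusted p from 0.170 to 0.410. The exceptions were DNAJB4, at 11.2 and 4.42 CPM against 3.20 and 0.0638 CPM, and hsp90aa1.1, which overlapped at 7.66 and 2.90 against 1.18 and 3.70 CPM. hspa1b was not tested, and its counts were 0 and 6 in non-vein against 0 and 109 in vein libraries.

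Near-identical HSP70 copies share reads, so the split of estimated counts among them is uncertain. The gene named HSPA2 (ENSDARG00000092362) was not placed in a class, since its inducibility in zebrafish is not given by the name. It had 950.3 and 448 CPM in non-vein against 1181 and 2015 CPM in vein libraries (log2 1.19, SE 0.43, adjusted p = 0.133). HSPA2 passed the test in 4 of 15 settings, including without non-vein replicate 1, where its log2 fold was 1.84 (adjusted p = 0.0236, range 0.0236 to 0.328). Summed over hsp70.1, hsp70.3, hsp70l and HSPA2 the level was 2219 and 1260 CPM in non-vein against 2945 and 4995 CPM in vein libraries. The sum does not depend on the split among these 4 genes, and its groups did not overlap. hsp70.1, hsp70.2 and hsp70.3 follow each other in the RefSeq annotation, of another build than the tables. Of the 4 other unplaced members, hspb9l had 1.47 and 3.10 CPM in non-vein against 7.71 and 15.3 CPM in vein libraries (adjusted p = 0.132), dnaja overlapped between groups (adjusted p = 0.513), and hspa12a.1 and hspa12a.2 had no count.

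Immediate early genes are switched on quickly after a signal, and 8 of them were higher beside the heat-inducible class. Few muscle, epidermal, erythroid or stromal markers passed the test after adjustment. Of 21 immediate early genes 8 were higher and 0 lower in vein libraries, and their summed level was 23378 and 25960 CPM in non-vein against 67003 and 73527 CPM in vein libraries. The 8 are 38.1% of those tested, beside 4.11% of all genes tested. Of the 21 log2 folds 16 were above 0 and 5 below, down to -3.71. Both vein libraries lay above both non-vein libraries in 15 genes (71.4%) and below them in 4 (19.0%), beside 29.0% and 33.1% of all genes tested. Of 13 skeletal muscle markers 12 were tested and 1 was higher, and their summed level was 1042 and 2650.5 CPM in non-vein against 3958 and 10531 CPM in vein libraries. All 12 log2 folds were above 0, with a median of 1.92. In edgeR's test 9 (75%) were higher at an unadjusted p under 0.05, beside 12.3% of all genes tested. ACTC1 was at 0 in 1 library of each group and smyhc1 in 1 non-vein library. Epidermal markers summed to 376 and 520.4 CPM against 782 and 1399 CPM (1 of 10 tested higher, with cdh1 at 0 in both non-vein libraries and 1 vein library). Erythroid markers summed to 1727 and 1923 CPM against 2235 and 4269 CPM (0 of 8 tested passed edgeR's test, 1 was higher at an unadjusted p under 0.05 and DESeq2 called hbae1.3 and alas2 higher, with hbaa1 at 0 in all libraries). Stromal and mural markers summed to 308 and 358 CPM against 926 and 981 CPM (1 of 10 tested higher and 1 lower, with CSPG4 at 0 in all libraries). This list did not move as one, with 6 log2 folds above 0 and 4 below, down to -10.2. NOTCH3 was at 0 in both vein libraries alone, and MYH11 in both vein libraries and 1 non-vein library. PDGFRB and TAGLN were at 0 in 1 vein library, acta2 in 1 non-vein library and PDGFRA in 1 library of each group. LUM was at 0 in both non-vein libraries and 1 vein library. Higher were thus 8.33% of the tested muscle markers and 10% each of the epidermal and the stromal and mural markers, beside 4.11% of all genes tested. Lower were 10% of the stromal and mural markers, beside 7.33% of all genes tested. The part of all these genes in the chaperone differences was not tested. As a check of the vein label, 7 of 10 vein genes (70%) were higher in vein libraries, beside 4.11% of all genes tested. The sort itself used a reporter of venous endothelium. Pan-endothelial genes differed as well, with 9 of 13 (69.2%) higher in vein libraries, although both groups were sorted on kdrl:GFP. They summed to 4162 and 5795 CPM in non-vein against 17861 and 15431 CPM in vein libraries. The share of endothelial cells in each group was not tested. No gene of either list was at 0 in any library.

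Among the constitutive HSP70, HSP90 and HSP110 genes HSP90AB1 and HSPA14 were lower in vein cells. The class also holds HSPBP1, an exchange factor of HSP70. Of its 8 identifiers 7 were tested, and 2 passed the test as lower and 0 as higher. All 7 log2 folds were below 0, with a median of -0.48, but the groups overlapped in 3 of the 7. Both vein libraries lay below both non-vein libraries in 4 (57.1%), beside 33.1% of all genes tested. Among these 4 is a second HSPA8 identifier with 33 and 22 counts in non-vein and 0 in both vein libraries. It passed the filter through its non-vein counts alone, so its direction was fixed by the filter and adds no support. The 2 that passed are 28.6% of those tested, beside 7.33% of all genes tested. HSP90AB1, the constitutive cytosolic HSP90, stood at 1632 and 1571 CPM in non-vein against 892 and 964 CPM in vein libraries. The replicates of each group lay close together and the groups did not overlap. It was 1.73-fold lower in vein (log2 -0.79, SE 0.18, adjusted p = 0.0456). This is a value near the threshold: HSP90AB1 passed the test in 9 of 15 settings and missed it without non-vein replicate 1 (adjusted p = 0.0588), vein replicate 1 (0.174) or vein replicate 2 (0.109), within a range of 0.0017 to 0.174.

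HSPA14, an HSP70 that acts at ribosomes together with the J-domain protein DNAJC2, stood at 266 and 175 CPM in non-vein against 41.5 and 25.4 CPM in vein libraries. Both vein libraries were far below both non-vein libraries. The fold was 6.58 (log2 -2.72, SE 0.37, adjusted p = 0.0170), and it passed the test in all 15 settings. Its partner DNAJC2 had 41.6 and 30.1 CPM against 23.7 and 27.8 CPM (log2 -0.48, adjusted p = 0.454).

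HSPA8 (ENSDARG00000068992), the main constitutive HSP70 of the cytosol, stood at 3286 and 3120 CPM in non-vein against 2264 and 2340 CPM in vein libraries. The groups did not overlap, but the difference did not pass the test (log2 -0.48, SE 0.17, adjusted p = 0.120). A second identifier named HSPA8 (ENSDARG00000037403) had 33 and 22 counts in non-vein libraries and 0 in both vein libraries. That is at least 14.9-fold lower if 3 counts are taken as the floor for the group, at an adjusted p of 0.0884. The HSP110 genes overlapped between groups. HSPA4 had 63.3 and 32.1 against 41.6 and 49.5 CPM under 1 identifier (ENSDARG00000004754) and 37.9 and 32.3 against 33.1 and 30.9 CPM under the other (ENSDARG00000018989), with adjusted p of 0.943 and 0.843. HSPBP1, an exchange factor of HSP70 that the naming rule takes in, had 20.9 and 28.5 against 27.8 and 14.2 CPM (adjusted p = 0.814).

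Within a library, the balance between inducible and constitutive chaperones can be read from FPKM, which scales for transcript length. HSP90AB1 exceeded HSP90AA1 in FPKM by 17.8- and 14.1-fold in non-vein against 2.57- and 1.93-fold in vein libraries. The constitutive form was above the inducible form in all 4 libraries. The ratio of hsp70l to HSPA8 in FPKM was 0.0982 and 0.0803 in non-vein against 0.320 and 0.503 in vein libraries. That of dnajb1b to HSPA8 was 0.107 and 0.0915 against 0.312 and 0.469. In each of these ratios the groups did not overlap, which follows from the single genes and is no separate result. HSP90AA1, hsp70l and dnajb1b lay above, and HSP90AB1 and HSPA8 below, in both vein libraries.

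Over whole classes, summed FPKM of the heat-inducible genes divided by that of the constitutive and CCT genes was 0.175 and 0.171 in non-vein against 0.860 and 1.18 in vein libraries. Both parts of the ratio differed, since the constitutive and CCT sum was 4436 and 3894 FPKM in non-vein against 1854 and 1827 FPKM in vein libraries. On a log2 scale the ratio was -2.53 ± 0.02 (SD, n = 2) in non-vein and 0.01 ± 0.32 (SD, n = 2) in vein libraries, a difference of 2.54. A two-sided exact permutation test gave p = 0.333, the smallest that 2 against 2 samples allow. The difference was 2.47 with HSPA2 and hspb9l counted as inducible and 2.34 on summed CPM. Both variants keep the CCT genes in the divisor, where the parts differed unequally. Mean summed FPKM was 3.59-fold lower in vein for CCT and 1.61-fold lower for the constitutive HSP70, HSP90 and HSP110 genes.

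**Figure D3:**
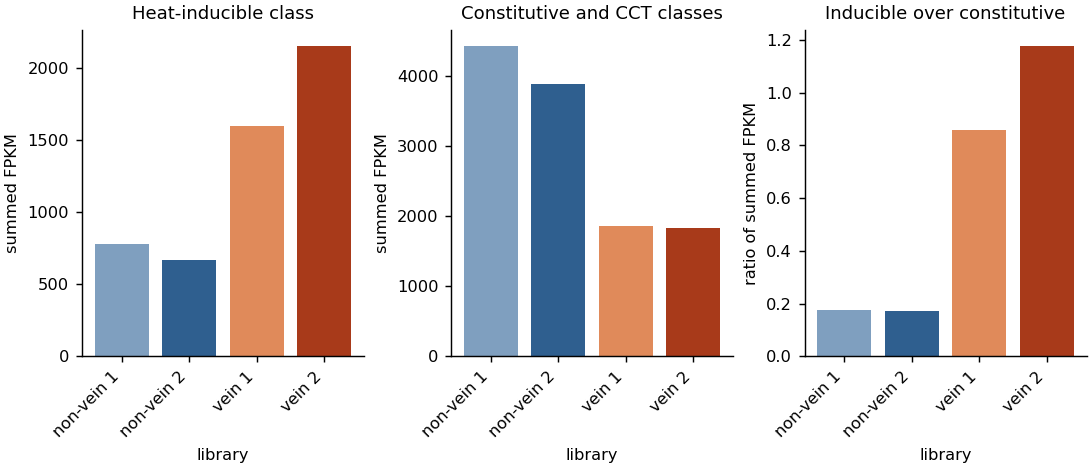
Summed FPKM of the heat-inducible class, summed FPKM of the constitutive and CCT classes, and the ratio of these sums, with 1 bar per library. The ratio was 0.175 and 0.171 in non-vein against 0.860 and 1.18 in vein libraries.

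The CCT chaperonin was lower in vein cells across every subunit gene that was measured. All 8 identifiers passed the test as lower, their log2 folds ran from -2.39 to -1.15 with a median of -1.73, and in none did the groups overlap. Over all genes tested 7.33% passed as lower, and in 33.1% both vein libraries lay below both non-vein libraries. Summed FPKM was 2407 and 1955 in non-vein against 624 and 592 in vein libraries. The complex is a double ring built of different subunits from alpha to theta, each of which is needed for its function.

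CCT3, the gamma subunit, stood at 401 and 386 CPM in non-vein against 83.5 and 84.1 CPM in vein libraries. Replicates nearly coincided in both groups, and the fold was 4.69 (log2 -2.23, SE 0.21, adjusted p = 0.0124). CCT4, the delta subunit, stood at 1433 and 1095 CPM in non-vein against 354 and 357 CPM in vein libraries (log2 -1.83, SE 0.22, adjusted p = 0.0151). CCT5, the epsilon subunit, stood at 802 and 641 CPM against 169 and 219 CPM (log2 -1.90, SE 0.24, adjusted p = 0.0157). These subunits were lower by 3.56- to 4.69-fold. CCT2, the beta subunit, had 446 and 349 CPM in non-vein against 138 and 120.2 CPM in vein libraries (log2 -1.62, SE 0.23, adjusted p = 0.0183). CCT7, the eta subunit, had 412 and 305 CPM against 132 and 100.1 CPM (log2 -1.63, SE 0.27, adjusted p = 0.0232). CCT6B, under whose name the tables give a zeta subunit, had 481 and 353 CPM against 193 and 165 CPM (log2 -1.22, SE 0.25, adjusted p = 0.0360). The smallest difference was in CCT8, the theta subunit, with 165 and 159 CPM in non-vein against 67.7 and 78.0 CPM in vein libraries (log2 -1.15, SE 0.23, adjusted p = 0.0355). A second beta-named identifier, cct2 (ENSDARG00000087206), had 32.4 and 28.7 CPM against 6.66 and 4.97 CPM (log2 -2.39, SE 0.47, adjusted p = 0.0341), and reads could be shared between it and CCT2.

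TCP1, the alpha subunit that the naming rule leaves out, moved with the others. It stood at 1063 and 724 CPM in non-vein against 175 and 203 CPM in vein libraries (4.73-fold, log2 -2.24, SE 0.27, adjusted p = 0.0151). In FPKM the order of TCP1 and the 7 CCT genes from CCT2 to CCT8 was led by CCT4 and ended with CCT8 in all 4 libraries. The spread between these ends narrowed from 15.3- and 12.2-fold in the non-vein libraries to 9.21- and 8.13-fold in the vein libraries.

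**Figure D4:**
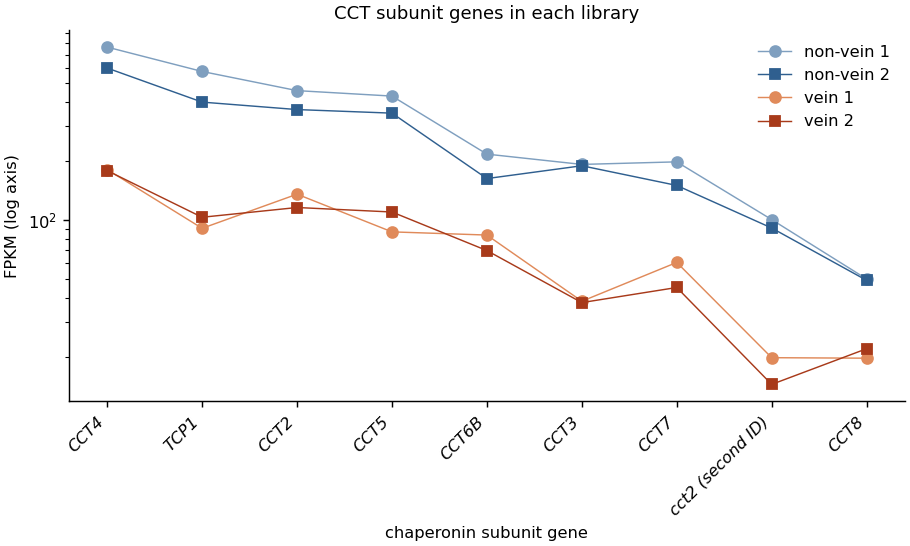
FPKM (log axis) of TCP1 and the CCT subunit genes in each library, with lines joining the values of 1 library. Both vein lines lie below both non-vein lines at every subunit, for example at CCT4 with 181 and 178 against 764 and 597 FPKM.

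CCT2, CCT3, CCT4 and CCT5 passed the test in all 15 settings, and the number of CCT identifiers that passed fell to 5 without non-vein replicate 1, 6 without non-vein replicate 2, 6 without vein replicate 1 and 4 without vein replicate 2. The calls lost were CCT6B (adjusted p up to 0.10), CCT7 (0.0561, without vein replicate 2), CCT8 (0.0572 to 0.122, without any 1 library) and cct2 (up to 0.146), while no CCT log2 fold was above -0.98 without any 1 library. Many cell cycle genes and some blood cell markers were lower in the same libraries. Of 26 cell cycle genes 24 were tested and 20 were lower, and their summed level was 6778 and 5129 CPM in non-vein against 778 and 691 CPM in vein libraries. birc5b and MCM6 were at 0 in all 4 libraries, bub1 in both vein libraries and TOP2A in 1 vein library. Of 17 leukocyte and blood progenitor markers 15 were tested and 6 were lower, and their summed level was 3514 and 2954 CPM in non-vein against 709 and 1383 CPM in vein libraries. Lower were thus 83.3% of the tested cell cycle genes and 40% of these markers, beside 7.33% of all genes tested. csf1ra and RAG1 were at 0 in all libraries, lck was at 0 in 1 library of each group, and ptprc, spi1a, RUNX1 and gata2b were at 0 in 1 vein library. The part of either list in the lower CCT levels was not tested.

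Among the mitochondrial chaperones HSPE1 was lower in vein cells. Of 12 members 11 were tested, 1 passed the test as lower and 0 as higher, and the median log2 fold was -0.95. That is 9.09%, near the 7.33% of all genes tested. In edgeR's test 4 (36.4%) were lower at an unadjusted p under 0.05, beside 17.7% of all genes tested. HSPE1, the HSP10 lid of the mitochondrial chaperonin, stood at 714 and 682 CPM in non-vein against 338 and 299 CPM in vein libraries. No vein library reached a non-vein library, and the fold was 2.19 (log2 -1.13, SE 0.19, adjusted p = 0.0248). The call was lost without vein replicate 1 (adjusted p = 0.0688) or vein replicate 2 (0.0806), within a range of 2.5e-05 to 0.0806. HSPD1, the HSP60 barrel, stood at 227 and 174 CPM against 110.4 and 65.8 CPM and did not pass the test (log2 -1.18, SE 0.33, adjusted p = 0.0762). HSPD1 passed as lower in 4 of the 15 settings, namely DESeq2, no filter, the edgeR version 4 method and limma on log2(FPKM + 1). The pair lies side by side in the RefSeq annotation, and the FPKM of HSPE1 over HSPD1 was 13.5 and 17.0 in non-vein against 13.0 and 19.5 in vein libraries, which overlapped.

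HSPA9, the mitochondrial HSP70, had 106 and 92.7 CPM in non-vein against 97.0 and 92.9 CPM in vein libraries. Its groups overlapped (log2 -0.07, SE 0.24, adjusted p = 0.899). DNAJA3, a J-domain partner of HSPA9, had 48.1 and 38.3 CPM against 10.1 and 19.7 CPM (log2 -1.53, SE 0.46, adjusted p = 0.0881). DNAJA3 passed as lower with DESeq2 and limma on log2(FPKM + 1), among other settings. The import-motor J proteins DNAJC19 and DNAJC15 were lower in both vein libraries without passing the test, at 72.3 and 81.2 against 60.5 and 45.5 CPM for DNAJC19 (adjusted p = 0.286). For DNAJC15 the values were 52.6 and 33.2 against 18.7 and 21.4 CPM (adjusted p = 0.124). dnajc4 was the 1 mitochondrial member above in both vein libraries, at 34.0 and 32.7 against 56.8 and 67.1 CPM (log2 0.89, SE 0.29, adjusted p = 0.101).

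Chaperones of the endoplasmic reticulum gave no member that passed the test. In edgeR's test 0 of 15 tested members passed, 2 were higher and 0 lower at an unadjusted p under 0.05, and the median log2 fold was 0.43 (12 above 0 and 3 below). The 2 are 13.3% of those tested, near the 12.3% of all genes tested. None passed under any of the 15 settings, DESeq2 and limma included. HSPA5, the HSP70 known as BiP, stood at 640.4 and 466 CPM in non-vein against 1144 and 694 CPM in vein libraries. The vein libraries were both higher but far apart (log2 0.73, SE 0.31, adjusted p = 0.185). HSP90B1, the HSP90 of this compartment, stood at 56.8 and 62.1 CPM against 154 and 80.5 CPM (log2 0.98, SE 0.37, adjusted p = 0.142), again with the first vein library well above the second. DNAJB11, a BiP partner, had 73.6 and 50.2 against 88.0 and 59.4 CPM and overlapped (adjusted p = 0.702). dnajc3a, which also acts on translation control during stress, had 11.8 and 14.8 against 22.3 and 19.2 CPM (adjusted p = 0.429). The other 11 tested members of the class lay below 50 CPM in every library, with adjusted p from 0.160 to 0.879.

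The J-domain proteins of cytosol and nucleus gave no call either. Of 18 members 17 were tested, 0 passed edgeR's test, 0 were higher and 3 lower at an unadjusted p under 0.05, and the median log2 fold was -0.28. The 3 are 17.6% of those tested, near the 17.7% of all genes tested. dnajc8, a splicing-associated J protein, stood at 203 and 172 CPM in non-vein against 135 and 105 CPM in vein libraries (log2 -0.65, SE 0.25, adjusted p = 0.149). DNAJC9, a histone chaperone linked to DNA replication, stood at 169 and 112 CPM against 49.6 and 72.2 CPM (log2 -1.20, SE 0.33, adjusted p = 0.0741) and passed the test in 6 of 15 settings. In both genes the groups did not overlap. DNAJC21, a ribosome biogenesis factor, had 22.1 and 16 CPM against 6.40 and 5.29 CPM (log2 -1.70, SE 0.56, adjusted p = 0.104). DNAJC7 and DNAJA2 (ENSDARG00000104066), which work with HSP70 and HSP90, overlapped between groups, with adjusted p of 0.643 and 0.869. DESeq2 called DNAJC9 and DNAJC21 lower and limma on log2(FPKM + 1) DNAJC9 alone. Among the 7 J proteins of membrane traffic 4 were tested and 0 passed, at an unadjusted p under 0.05 and with DESeq2 and limma as well. dnajc5ga had 11.2 and 13.5 against 12.6 and 5.23 CPM (adjusted p = 0.718), and DNAJC5 (ENSDARG00000004836), a cysteine string protein of secretory vesicles, had 6.57 and 5.54 against 7.12 and 12.9 CPM (adjusted p = 0.559).

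Small heat shock proteins outside the inducible class were scarce, and most of their counts came from vein libraries. Of 6 members 2 were tested and 0 passed edgeR's test. Both (100%) were higher at an unadjusted p under 0.05, beside 12.3% of all genes tested. HSPB8, which works with BAG3 to clear damaged proteins in muscle of mammals, had 1.85 and 3.61 CPM in non-vein against 13.8 and 10.5 CPM in vein libraries (log2 2.15, SE 0.76, adjusted p = 0.123). hspb6, a muscle-enriched family member in mammals, had 1.09 and 0.203 CPM against 3.46 and 12.0 CPM (log2 3.57, SE 1.33, adjusted p = 0.140). Neither gene's groups overlapped, with vein above in both, beside 29.0% of all genes tested. The counts of hspb6 were 20 and 4 in non-vein against 53 and 188 in vein libraries. It met the filter in both libraries of a group only in vein, so its direction is not independent of its being tested. DESeq2 called both genes higher and limma on log2(FPKM + 1) HSPB8 alone. Of the untested members, hspb15 had 0 and 0 counts in non-vein against 8 and 41 in vein libraries, HSPB3 0 and 0 against 3 and 3, HSPB2 0 and 0 against 0 and 12, and HSPB7 none. The level in CPM was highest in the second vein library for hspb6, hspb15 and HSPB2 and in the first for HSPB8. In FPKM HSPB8 had the other order, with 8.125 in the first and 9.066 in the second vein library. HSPB3 had 3 counts in each. Summed muscle markers were at 3958 CPM in the first and 10531 CPM in the second vein library, and their part in these values was not tested.

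HSPA12B (ENSDARG00000030307), a distant HSP70 relative that in mammals is expressed mainly in endothelium, had the largest fold of the members that passed the test. It stood at 36.6 and 57.4 CPM in non-vein against 3.40 and 5.93 CPM in vein libraries. Both vein libraries were far below, and the gene was 10.1-fold lower (log2 -3.33, SE 0.51, adjusted p = 0.0201). Without non-vein replicate 2 the adjusted p was 0.0523, at the top of a range from 5.2e-08. The direction differs from that of the 13 pan-endothelial genes, of which 9 (69.2%) were higher in vein libraries, beside 4.11% of all genes tested. Its relative HSPA12A had 8.20 and 6.30 CPM against 14 and 7.97 CPM and overlapped (adjusted p = 0.619).

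Genes that work with these chaperones but lie outside the naming rule were read from lists by role. Among HSF1 and its relatives no factor passed the test. hsf1, the heat-activated factor, had 7.61 and 3.20 CPM in non-vein against 18.2 and 3.57 CPM in vein libraries (adjusted p = 0.577), and HSF2 had 81.2 and 87.2 against 99.2 and 131 CPM (log2 0.45, adjusted p = 0.317). Neither passed in any of the 15 settings, and HSF4, hsf5 and HSF2BP had no counts. HSBP1, a small protein that binds HSF1 and restrains it, fell from 26.0 and 37.0 CPM to 2.94 and 5.55 CPM (7.41-fold, log2 -2.89, SE 0.57, adjusted p = 0.0338). It missed the test without non-vein replicate 1 (adjusted p = 0.0610), non-vein replicate 2 (0.114) or vein replicate 1 (0.0570), within a range of 3.7e-05 to 0.114. Its paralog hsbp1b overlapped at 54.8 and 74.7 against 82.7 and 62.9 CPM (adjusted p = 0.786). HSBP1 was the 1 of 4 tested regulators that passed, and 3 log2 folds were above 0. That single gene is 25% of those tested, beside 7.33% of all genes tested that passed as lower.

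Other stress-inducible genes listed as HSF1 targets gave 4 higher and 0 lower of 14 tested, with a median log2 fold of 0.58. The share of higher genes was 28.6%, beside 4.11% of all genes tested. The list did not move as one, with 8 log2 folds above 0 and 6 below, down to -1.36. Both vein libraries lay above both non-vein libraries in 7 genes (50%) and below them in 3 (21.4%), beside 29.0% and 33.1% of all genes tested. The polyubiquitin genes UBB and ubb (ENSDARG00000093313), which supply ubiquitin for degradation, were both higher. UBB stood at 805 and 1015 CPM in non-vein against 2796 and 2589 CPM in vein libraries (2.96-fold, log2 1.56, adjusted p = 0.0159). ubb stood at 421 and 453 CPM against 1135 and 1261 CPM (2.74-fold, log2 1.46, adjusted p = 0.0160). HMOX1, the haem-degrading enzyme, which other stress factors than HSF1 also drive, rose from 144 and 259 CPM to 6498 and 7299 CPM (adjusted p = 0.0099). SQSTM1, a receptor for autophagy of ubiquitin-tagged proteins, rose from 50.9 and 140.5 CPM to 441 and 514 CPM (log2 2.32, SE 0.50, adjusted p = 0.0409). Its log2 fold was 3.22 without non-vein replicate 2, and its call was lost without vein replicate 1 (adjusted p = 0.0547) or 2 (0.0546), within a range of 6.2e-06 to 0.0721. The HSP70 co-chaperone BAG3 had 9.89 and 24.8 against 26.8 and 62.9 CPM (log2 1.37, adjusted p = 0.220).

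Co-chaperones of HSP70 and HSP90 gave 2 lower and 0 higher of 26 tested, with a median log2 fold of -0.61. At 7.69% the share of lower genes was near the 7.33% of all genes tested. PTGES3 (ENSDARG00000089626), the HSP90 co-chaperone p23, stood at 679 and 529 CPM in non-vein against 78.8 and 71.2 CPM in vein libraries. It was 8.05-fold lower without overlap (log2 -3.01, SE 0.24, adjusted p = 0.0104). A second identifier of that name (ENSDARG00000037284) overlapped at 146 and 92.9 against 92.3 and 97.1 CPM (adjusted p = 0.530). PPID, the HSP90-binding cyclophilin, stood at 297 and 229 CPM against 26.8 and 64.0 CPM (5.79-fold lower, log2 -2.53, SE 0.46, adjusted p = 0.0286), and its log2 fold was -3.30 without vein replicate 2. STIP1, which links HSP70 to HSP90, had 109 and 59.7 against 35.8 and 35.8 CPM and missed the test (adjusted p = 0.0881). Some genes, STIP1 and BAG3 among them, stand in more than 1 of these lists.

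Prefoldin and other genes of tubulin folding, TCP1 among them, gave 7 lower and 0 higher of 13 tested, with a median log2 fold of -1.38. The 7 are 53.8% of those tested, beside 7.33% of all genes tested. Of the 13 log2 folds 11 were below 0 and 2 above, up to 4.13. In edgeR's test 1 gene (7.69%) was higher at an unadjusted p under 0.05, beside 12.3% of all genes tested. Prefoldin is the jaw-shaped complex that passes new actin and tubulin chains to CCT. PFDN4 fell from 373 and 375 CPM to 142 and 119 CPM (log2 -1.52, SE 0.21, adjusted p = 0.0176), and PFDN5 from 309.7 and 229 CPM to 108 and 99.2 CPM (log2 -1.38, SE 0.25, adjusted p = 0.0277). PFDN1, PFDN2, PFDN6 and VBP1 also passed, so that all 6 prefoldin subunit genes were lower in vein cells. Apart from these 6 and TCP1 no gene of the list passed. The list's count fell to 3 without non-vein replicate 1 or vein replicate 2. PFDN5 missed the test without non-vein replicate 1 (adjusted p = 0.0591), vein replicate 1 (0.0722) or vein replicate 2 (0.0730), within a range of 9.0e-05 to 0.0730.

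Folding enzymes and stress genes of the endoplasmic reticulum gave 2 higher and 0 lower of 27 tested, with a median log2 fold of 0.65. The share of higher genes was 7.41%, beside 4.11% of all genes tested. Of the log2 folds 24 were above 0 and 3 below. In edgeR's test 9 genes (33.3%) were higher and 0 lower at an unadjusted p under 0.05, beside 12.3% and 17.7% of all genes tested. Both vein libraries lay above both non-vein libraries in 13 genes (48.1%) and below them in 0, beside 29.0% and 33.1% of all genes tested. DDIT3, the stress factor CHOP, rose from 83.2 and 116 CPM to 264 and 382 CPM (3.25-fold, log2 1.70, SE 0.30, adjusted p = 0.0266). HERPUD1, which takes part in degradation of misfolded proteins of this compartment, rose from 16.7 and 24.6 CPM to 73.3 and 125 CPM (4.80-fold, log2 2.26, SE 0.40, adjusted p = 0.0266). DDIT3 missed the test without vein replicate 2 (adjusted p = 0.0550, range 3.9e-06 to 0.0550) and HERPUD1 without non-vein replicate 1 (0.0559, range 5.4e-06 to 0.0619). XBP1, a transcription factor of the unfolded protein response, had 1164 and 1102 against 1998 and 1753 CPM (log2 0.73, SE 0.18, adjusted p = 0.0582).

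**Figure D5:**
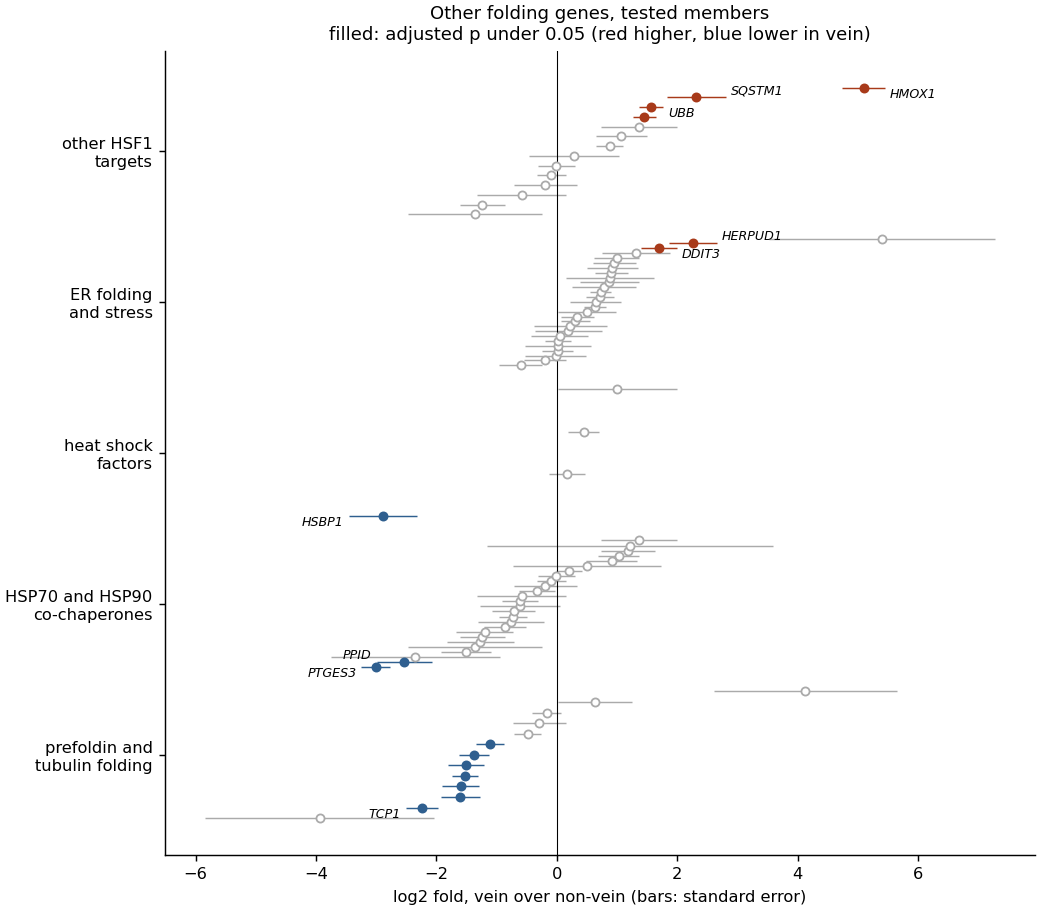
Log2 fold of vein over non-vein with its standard error for tested genes of the folding lists outside the naming rule, 1 row of points per list, with filled red points higher and filled blue points lower at an adjusted p under 0.05. PTGES3 at -3.01 and TCP1 at -2.24 lie on the left, and HERPUD1 at 2.26 and HMOX1 at 5.10 on the right.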

How the data were processed

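Per the labels' protocols, RNA of the sorted cells was enriched for mRNA, made into libraries (NEBNext Ultra) and sequenced on a NovaSeq. The tools in the submitters' processing notes, given without roles, are DESeq2, RSEM, HISAT2, StringTie 1.3.1, Bowtie2 2.2.8 and fastp 0.18.0, with the build GRCz11. The use of strand in counting is, in the sources used here, not given. Estimated counts come from a table deposited by the authors whose columns say FPKM, per the file headers, yet hold only whole numbers, and these were taken as rounded estimated counts. A second deposited table gives FPKM, which served for levels compared between genes and for alternatives. Counts of close paralogs, and of overlapping genes, can share reads.

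After filterByExpr (minimum count 10) and TMM scaling, edgeR 4.0.16 in R 4.3.3 fitted the legacy quasi-likelihood test with group alone as factor. P-values were adjusted by Benjamini-Hochberg over all genes tested, and those under 0.05 passed. The biological coefficient of variation common to all genes was 0.699. Standard errors were taken as log2 fold over the root of F. A two-sided exact permutation p cannot go below 0.333 with these sample numbers. The procedure was also run on simulated counts in which all genes had the same spread between libraries, unlike measured genes. That run does not bear on single genes here.

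The members and lists were chosen with earlier results of these data known. Classes follow general knowledge of the families, 5 members were placed in none, and 18 share a symbol with other identifiers. Named by rule were the 8 highest and 8 lowest log2 folds among members past the threshold, the 2 members of each class with the highest FPKM, up to 3 genes past the threshold in each folding list, and the heat shock factor genes; others were named with their values seen. Marker lists had no such rule. RefSeq served only for neighbouring genes, and no coordinates are given. The 15 alternatives were DESeq2 1.42.0, its size factors in edgeR, library totals, no filter, a minimum of 50 counts in 2 libraries, edgeR's version 4 method, limma 3.58.1 on log2(FPKM + 1), filtered at a mean FPKM of 1 or unfiltered, and on filtered log2(FPKM + 0.1), a block for replicate number, removal of the genes for haemoglobins, mitochondrial transcripts and ribosomal proteins, and removal of each library in turn.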

Additional observations from a re-analysis of the deposited data

How the results depend on the processing

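No member that passed the test in any setting changed direction, while 22 tested members that passed in none changed sign in at least 1 of the 15 settings. Among the genes named by rule, the log2 fold of dnajc5ga was -0.47 and ran from -1.24 to 0.025 with 1 library left out (0.025 without vein replicate 2), that of hsf1 was 1.01 and ran from -0.60 to 1.76 (-0.60 without vein replicate 1), and that of hsbp1b was 0.17 and ran from -0.046 to 0.40 (-0.036 without non-vein replicate 1 and -0.046 without vein replicate 1). Members higher in vein numbered 3 in the main analysis, 9 with DESeq2, 6 with no filter, with the edgeR version 4 method or with limma on log2(FPKM + 1), and 1 with limma on unfiltered log2(FPKM + 1); for the heat-inducible members the counts were 3, 5 with DESeq2, no filter or the edgeR version 4 method, and 1 with limma without a filter. Leaving out 1 library gave 2 to 5 higher members (5 without non-vein replicate 1), 7 to 10 lower members against 12 (7 without vein replicate 2), 2 to 4 higher heat-inducible members, 4 to 6 lower CCT identifiers against 8, and a log2 difference of the class ratio of 2.32 to 2.77. Replicate numbers were shared between groups only as numbers. Over the genes tested, the difference of replicate 1 from replicate 2 in non-vein correlated at 0.041 with that in vein. The replicate block gave 2 higher and 9 lower members and 6 lower CCT identifiers, and moved the counts over all genes from 656 higher and 1170 lower to 454 and 716. Outside these counts, lower constitutive members went from 2 to 1 in 6 settings, each by the loss of HSP90AB1. Lower prefoldin and tubulin folding genes went from 7 to 4 with the block, lower co-chaperones from 2 to 4 with DESeq2, no filter, the edgeR version 4 method or limma on log2(FPKM + 1), and higher stress genes of the endoplasmic reticulum from 2 to 6 with DESeq2, 4 with the edgeR version 4 method or at least 50 counts, and 0 with unfiltered limma. The counts over all genes moved in the same settings. DESeq2 gave 1611 higher and 2307 lower, and the edgeR version 4 method 1332 and 1881, each of 15953 genes tested. No filter gave 1092 higher and 1753 lower of 21802. Limma on log2(FPKM + 1) gave 1163 higher and 2137 lower of 13389, and without a filter 333 and 929 of 21810. The median log2 fold of all genes moved to -0.28 without vein replicate 2 and to -0.14 with limma on log2(FPKM + 0.1), beside member medians of -0.18 and -0.27. The cause of these shifts was not tested. With 2 libraries per group, members of few counts had standard errors above 1 on the log2 scale.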
